A study of Mus musculus with 10 samples.

Results

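Long peaks of dimethylated lysine 9 of histone H3 (H3K9me2) that lay away from promoters and carried neither glucocorticoid receptor (GR) nor the demethylase LSD1 in fed mouse skeletal muscle are described here. Members were selected on measured values. They are peaks of the H3K9me2 fed list on chromosomes 1 to 19 or X that were 300 bp or longer, whose midpoint lay outside every promoter (1 kb upstream to 100 bp downstream of a RefSeq transcription start site, TSS, on GRCm38), and that shared no base with a GR fed or an LSD1 fed peak. Of the 171402 peaks in that list, 170921 were on these chromosomes, 5493 of those reached 300 bp, and 4593 met the whole rule. Another 626 long peaks had their midpoint in a promoter, and 274 long distal peaks shared a base with fed GR (164), fed LSD1 (212) or both.

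The series profiled skeletal muscle of C57BL/6J mice by chromatin immunoprecipitation and sequencing (ChIP-seq), in animals that were fed or starved for 24 h, with antibodies against GR, LSD1, H3K9me1 and H3K9me2 and with input DNA. The labels give an age of 10 weeks for all groups, whereas the study's text gives another age for its fed ChIP-seq. The study reports that its mice were male. All 10 groups held 1 library, so no difference between groups could be tested against replicates, and the 95% intervals below are exact Clopper-Pearson intervals that cover counting error only. The extraction notes in the labels carry 2 library codes: 1 is shared by the fed H3K9me1 and H3K9me2, both GR and both input libraries, and the other by both LSD1 libraries and the starved H3K9me1 and H3K9me2 libraries. For the 2 histone marks, starvation and the library code therefore cannot be told apart. Whole-muscle nuclei hold fibre and non-fibre nuclei, and a mark in some nuclei cannot be told apart from a weaker mark in all. Peak lists hold no expression values. Of 6 skeletal muscle marker genes (Acta1, Ckm, Myh4, Ttn, Ryr1 and Myod1), 6 had a GR fed peak in the gene body or up to 30 kb upstream and 5 an LSD1 fed peak, against 37.8% and 46% of all 26089 curated RefSeq genes; 10 of the 26 marker genes of other cell types had a GR fed peak.

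H3K9me2 is written by the methyltransferases G9a (EHMT2) and GLP (EHMT1), is bound by proteins such as the heterochromatin protein HP1, and marks silent chromatin, often as wide domains in gene-poor parts of the nucleus. LSD1 (KDM1A) is a demethylase that removes methyl groups from histone H3 and acts as a corepressor or, with nuclear receptors, as a coactivator. GR is the hormone-activated transcription factor that drives the response of muscle to glucocorticoids, which rise on starvation.

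The sequences below show the DNA of single members that the results return to, and they are not typical of the set. The first pair are the centres of the only members named by rule (those of highest fold, the longest, and those met most by other lists) in which at most 10% of the bases were repeat-masked and no untranslated region was touched. In this pair, capitals mark a match to any of 9 short transcription factor patterns listed with the motif results. The first window lies 142 kb upstream of Gm35244 and held no match; the second lies in an intron of Myo3a, an unconventional myosin of hair cells, and held 1 E-box. The latter belongs to a member of low fold that is set apart below by its copies. All are RefSeq GRCm38 plus-strand sequence, 5′ to 3′.
chr1:143486665-143486964: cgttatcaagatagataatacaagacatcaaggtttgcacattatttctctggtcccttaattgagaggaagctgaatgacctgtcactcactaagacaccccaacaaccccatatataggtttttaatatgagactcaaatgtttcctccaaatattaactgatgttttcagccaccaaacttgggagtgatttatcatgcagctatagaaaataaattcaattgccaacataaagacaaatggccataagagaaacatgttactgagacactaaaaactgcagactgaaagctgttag
chr2:22587642-22587941: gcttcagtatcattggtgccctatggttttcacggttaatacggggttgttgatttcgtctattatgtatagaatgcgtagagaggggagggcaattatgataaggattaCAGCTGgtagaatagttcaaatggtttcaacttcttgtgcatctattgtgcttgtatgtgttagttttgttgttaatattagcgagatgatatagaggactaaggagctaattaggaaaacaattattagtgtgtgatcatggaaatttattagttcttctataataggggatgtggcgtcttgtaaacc

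The other 4 are 60-base stretches around a match to the CTCF consensus, in capitals, from the 4 members of highest fold that held one, with at most 10% repeat-masked bases. They were chosen after their values were seen, because CTCF, the insulator protein that anchors chromatin loops, was the pattern whose share differed most, as a ratio, between member centres and their surroundings; short distal peaks showed a rise of the same direction. They lie in introns of Eif3b (a translation initiation factor subunit), Enpp6, Galntl6 and Arhgef10, in this order, and their peaks had folds over input of 4.29, 4.22, 4.01 and 3.66 in the H3K9me2 fed list. The first match reads on the minus strand and the other 3 on the plus strand. Only the CTCF match is in capitals here: the first stretch also holds the E-box letters CAGCTG, left in lower case.
chr5:140438942-140439001: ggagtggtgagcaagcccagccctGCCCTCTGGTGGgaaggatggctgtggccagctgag
chr8:47016437-47016496: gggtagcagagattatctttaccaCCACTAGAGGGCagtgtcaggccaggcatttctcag
chr8:57939624-57939683: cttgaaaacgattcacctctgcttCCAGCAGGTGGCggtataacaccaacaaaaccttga
chr8:14952430-14952489: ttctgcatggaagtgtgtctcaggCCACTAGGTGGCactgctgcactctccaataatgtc

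The lengths, fold enrichments and q-values in the fed H3K9me2 list belong to the list the rule used and are given as a description. Members measured 300 to 1154 bp with a median of 363 bp, and covered 1744 kb in all. Most were just past the limit: 1896 (41.3%) measured 300 to 349 bp, 1343 measured 350 to 399 bp, 1058 measured 400 to 499 bp, and 296 were 500 bp or longer. Fold enrichment over input, as the peak caller gave it, ranged from 1.56 to 8.69 with a median of 3.31 and quartiles of 3.21 and 3.49. The median q-value was 0.0321, and 489 members (10.6%) had a q-value of 0.01 or less. That share was lower than in the sets beside it. It was 20.9% of all 170921 fed H3K9me2 peaks and 21% of shorter distal peaks free of fed GR and LSD1. Long promoter peaks free of both had 15.1%, and long distal peaks with fed GR or LSD1 32.1%. Many members shared 1 value: 1166 (25.4%) stood at q = 0.0517, with folds of 2.82 to 3.25. Length did not come with a higher fold: the 158322 short distal peaks free of fed GR and LSD1, with a median length of 84 bp, had a median fold of 3.34. At the limit itself, the 446 members of 300 to 309 bp had a median fold of 3.32, and the 537 otherwise equal peaks of 290 to 299 bp had 3.33.

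**Figure D1:**
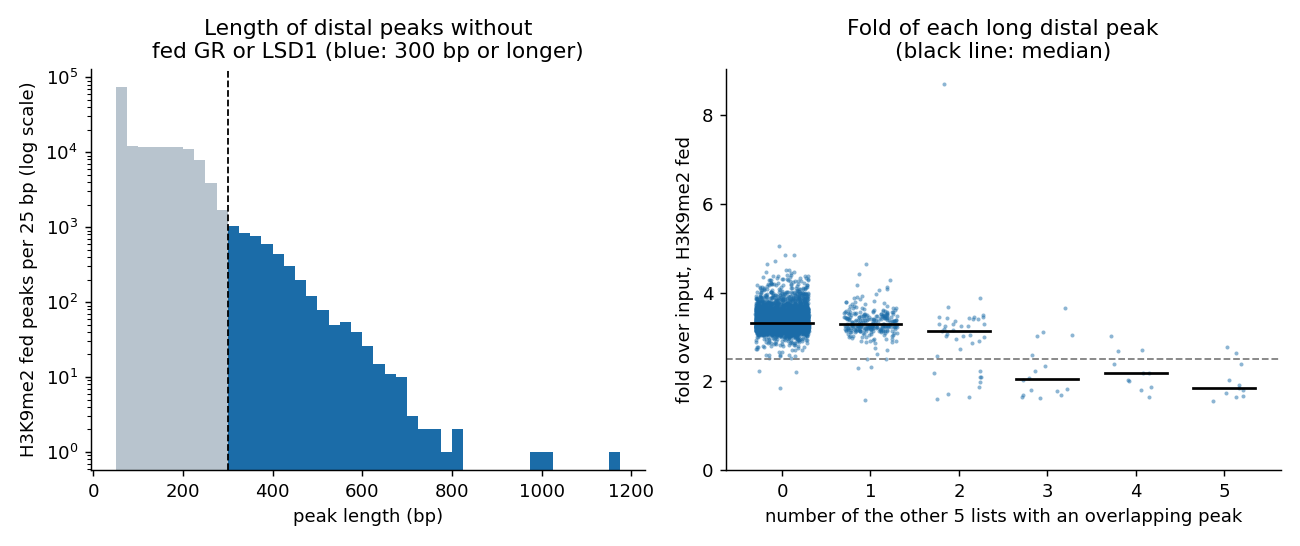
Left, number of distal H3K9me2 fed peaks without fed GR or LSD1 per 25 bp of length, on a log scale, with the 4593 members in blue to the right of the dashed 300 bp limit. Right, fold over input of each member against the number of the other 5 peak lists that overlapped it; black lines are medians, at 3.31 with no other list and 1.86 with 5, and the dashed line is a fold of 2.5.

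The member of highest fold, chr10:41748736-41749398, lay in an intron shared by BC048559 and Cep57l1 and reached 8.69 (q = 8.63e-18). It was overlapped by an H3K9me1 fed peak of fold 5.51 and an LSD1 starved peak of fold 3.28. The next 4 were much lower and were overlapped by none of the other lists. These lay in the intergenic window on chromosome 1 shown above (chr1:143486580-143487049, fold 5.06), in an intron of Meiob, a meiotic DNA-binding protein (chr17:24804630-24804983, fold 4.85), in an exon of the magnesium transporter gene Slc41a2 (chr10:83231583-83231989, fold 4.84) and in an intron of Slit3, an axon guidance ligand (chr11:35301068-35301654, fold 4.71).

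The longest members were of another kind. Chr4:146739675-146740828 (1154 bp) had a fold of 3.41 in fed muscle and was overlapped by GR starved (fold 2.68) and H3K9me2 starved (fold 3.96) peaks. Chr4:3090113-3091119 (1007 bp), 74.1% repeat-masked, stood at 2.18 and was overlapped by 4 other lists with folds between 1.94 and 2.11. Chr2:22587298-22588285 (988 bp) stood at 1.80 with q = 7.39e-09 and was overlapped by LSD1 starved, H3K9me1 fed and H3K9me1 starved peaks of folds 1.81, 1.55 and 1.82; it is the 1 member whose centre also matched the mitochondrial genome. Chr17:23534295-23535111 (817 bp, fold 3.19) was overlapped by a GR starved peak of fold 3.45 and an LSD1 starved peak of fold 5.49, the highest LSD1 starved fold at any member. Chr9:124257020-124257821 (802 bp, 85.5% repeat-masked) stood at 1.64 and was overlapped by all 5 other lists, with folds between 1.38 and 1.73. Low fold with several lists at once thus recurred in 3 of these 5.

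The question the design poses for these peaks is what became of them in starved muscle, and whether the receptor or the demethylase appeared there. In starved muscle 36 members (0.784%, 95% interval 0.55 to 1.08) were overlapped by an H3K9me2 peak, against 0.246% of all 170921 H3K9me2 fed peaks and 0.169% (0.15 to 0.191) of the short distal peaks. The starved H3K9me2 list itself was small, with 6624 peaks. Of these, 6470 lay on the chromosomes used, 163 were long and distal, and 52 also shared no base with a starved GR or LSD1 peak. None of those 52 touched a member, and 12 of the 163 did. Nearly every member was therefore without a called H3K9me2 peak after starvation, as was nearly every other fed H3K9me2 peak.

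GR starved peaks overlapped 207 members (4.51%, 3.93 to 5.15), against 3.06% of all H3K9me2 fed peaks and 1.25% (1.2 to 1.31) of the short distal peaks. The LSD1 starved list holds 66332 peaks and the GR starved list 37783. The size of the deposited LSD1 starved list differs widely from the number of starved LSD1 sites in the study's text, so each LSD1 starved value here describes the deposited list and may not describe the sites the study analysed. LSD1 starved peaks overlapped 133 members (2.9%, 2.43 to 3.42), against 1.68% of all and 0.9% (0.854 to 0.948) of the short distal peaks. The H3K9me1 lists met fewer: the fed list overlapped 36 members (0.784%, 0.55 to 1.08; 0.335% of all, 0.208% of short) and the starved list 87 (1.89%, 1.52 to 2.33; 0.67% of all, 0.509% of short). In all 5 lists the interval of the members lay above that of the short distal peaks, and the ratio of the shares was between 3.22 (LSD1 starved) and 4.63 (H3K9me2 starved). Since a longer peak can be met along more bases, the central 100 bp were also compared. Over the central 100 bp only, the ratio was 2.69 for GR starved (3.22% against 1.2%), 2.23 for LSD1 starved (1.87% against 0.838%), 4.19 for H3K9me2 starved, 2.11 for H3K9me1 starved and 1.92 for H3K9me1 fed. The 274 long distal peaks that held fed GR or LSD1 were met far more often, by GR starved in 60.2%, by LSD1 starved in 43.1% and by H3K9me2 starved in 16.8%. At the 265 long promoter peaks without fed GR or LSD1, the values were 30.2% and 12.1%, and 0 of 265 for H3K9me2 starved, which allows a share of up to 1.38% by the exact interval. Members thus stood between the short distal peaks and these 2 sets for the starved GR and LSD1 lists.

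**Figure D2:**
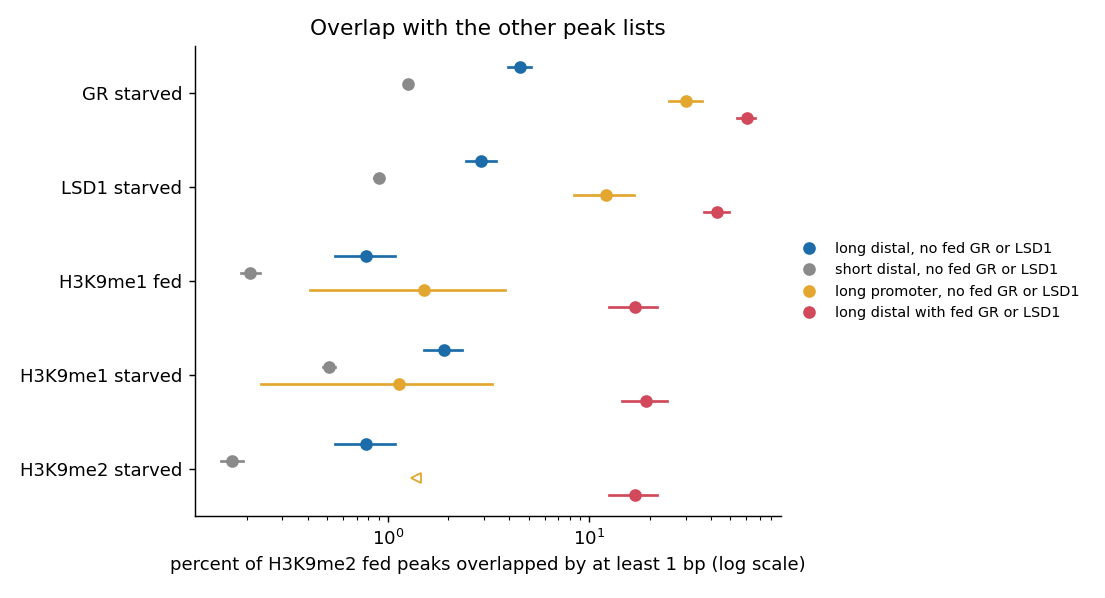
Share of 4 sets of H3K9me2 fed peaks that shared at least 1 bp with a peak of each other list, on a log scale, with 95% exact intervals; the open triangle is the upper limit for a share of 0. Members (blue) lie right of the short distal peaks (grey) in all 5 lists and left of the long distal peaks with fed GR or LSD1 (red).

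Within the members the share rose with length. By the central 100 bp, GR starved peaks met 2.59% (2.07 to 3.2) of the 3239 members of 300 to 399 bp, 3.78% (2.71 to 5.11) of the 1058 of 400 to 499 bp and 8.11% (5.26 to 11.8) of the 296 of 500 bp or more. Short distal peaks rose less steeply, from 1.02% at 50 to 99 bp to 1.56% at 200 to 299 bp. LSD1 starved peaks met 1.42%, 1.98% and 6.42% of the 3 member classes, and 0.792% to 0.898% of the short classes. The order of the first 2 member classes is within their intervals for both lists, and the longest class stands clear of the first.

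Much of the overlap with the H3K9me2 starved and H3K9me1 fed lists came from a few members of low fold. Only 43 members (0.936%) had a fold below 2.5, a limit chosen after seeing the values; 40 of them were overlapped by at least 1 other list and 28 by 3 or more, whereas of the 4550 members of fold 2.5 or more, 310 were overlapped by any and 10 by 3 or more. The 43 had strong q-values (median 0.00393), a median repeat-masked share of 51%, and 12 of them had a near-identical copy elsewhere in the genome. Without peaks below 2.5, H3K9me2 starved peaks met 14 members (0.308%) against 0.132% of the short distal peaks, and H3K9me1 fed peaks met 17 (0.374%) against 0.183%. GR starved peaks still met 179 (3.93% against 1.19%), LSD1 starved peaks 99 (2.18% against 0.843%) and H3K9me1 starved peaks 59 (1.3% against 0.467%). The same limit took the short distal peaks met by H3K9me2 starved from 268 of 158322 to 208 of 158110. Frequent overlap at low fold was thus not particular to the members. With both restrictions, the central 100 bp and a fold of 2.5 or more, GR starved met 2.64% (2.19 to 3.15) of members against 1.14% (1.09 to 1.19) of short distal peaks, and LSD1 starved 1.27% (0.969 to 1.64) against 0.784% (0.741 to 0.828). The intervals overlapped for H3K9me2 starved (0.22%, 0.105 to 0.404, against 0.119%, 0.103 to 0.137) and for H3K9me1 starved (0.549%, 0.356 to 0.81, against 0.436%, 0.404 to 0.469), and for H3K9me1 fed the members lay below the short peaks (0.132%, 0.0484 to 0.287, against 0.17%, 0.15 to 0.192). By length, GR starved rose under both restrictions from 2.36% (1.86 to 2.94) at 300 to 399 bp to 5.32% (3.01 to 8.62) at 500 bp or more. LSD1 starved stood at 1.18% (0.836 to 1.61), 1.05% and 3.19% (1.47 to 5.97) in the 3 member classes, where the intervals of the first and the last overlap. H3K9me2 starved peaks met 0.217% at 300 to 399 bp and 0 of 282 at 500 bp or more, which allows up to 1.3%.

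**Figure D3:**
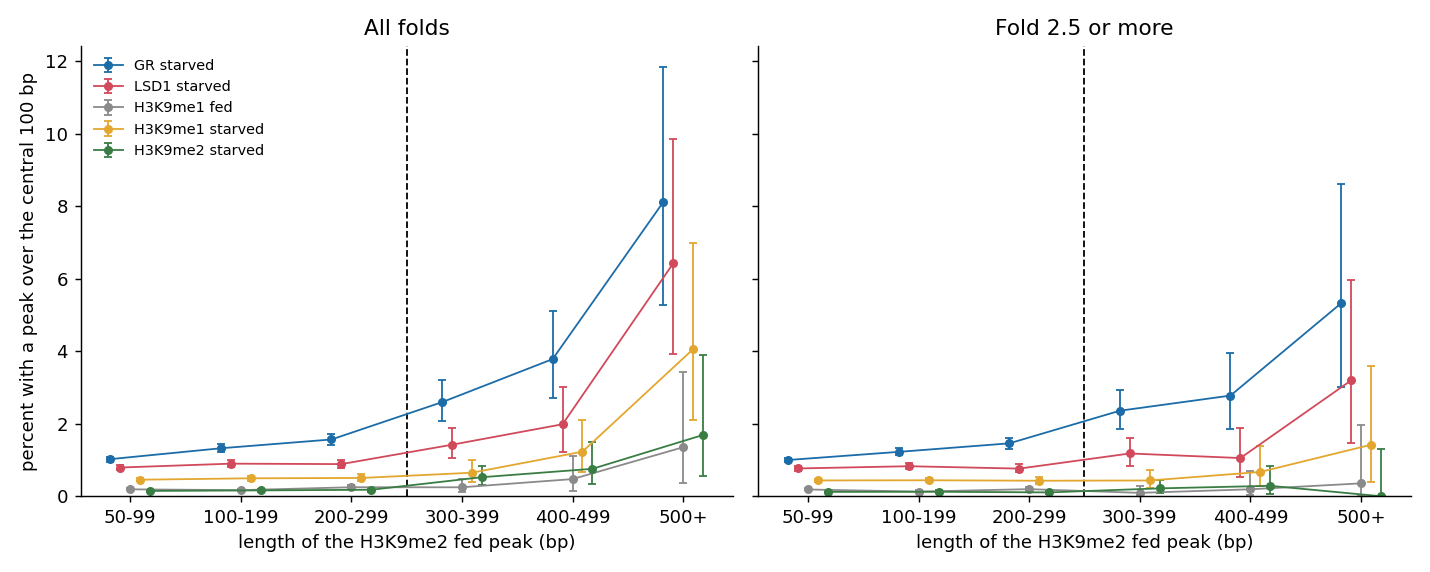
Share of distal H3K9me2 fed peaks without fed GR or LSD1 that had a peak of each other list over their central 100 bp, by peak length, for all folds (left) and for folds of 2.5 or more (right), with 95% exact intervals; members lie right of the dashed line. In the longest class GR starved stands at 8.11% on the left and 5.32% on the right, and H3K9me2 starved at 1.69% and 0%.

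In number, 4243 members (92.4%) were overlapped by no other list, 272 by 1, 40 by 2, 16 by 3, 11 by 4 and 11 by all 5; among short distal peaks 97.3% were overlapped by none. Of the 36 members with an H3K9me2 starved peak, only 2 had no other list there. By contrast, 145 of the 207 with a GR starved peak had that list alone. Beside the 4243 members with no other list, those 145 were richer in GC and nearer to genes, a comparison with no test: their median GC content was 52.4% against 43%, their median repeat-masked share 9.71% against 18.4%, and 48.3% of them had a TSS within 10 kb against 25.4%. The 71 members with an LSD1 starved peak alone had a GC content of 44.4%, and 33.8% had a TSS within 10 kb. The part of base composition in calling these peaks was not tested.

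The GR starved examples below were chosen after their values were seen, by GR fold. At chr13:52153382-52153696, intergenic, fed H3K9me2 stood at 3.89 (q = 0.00342) and starved GR at 5.23 (q = 2.57e-12). In an intron of Rxra, a retinoid X receptor and partner of many nuclear receptors (chr2:27690978-27691343), the values were 3.11 (q = 0.0517) and 4.84 (q = 1.07e-11). In an intron of Egln1, the oxygen sensor that hydroxylates hypoxia-inducible factor (chr8:124932297-124932708), they were 3.25 (q = 0.0517) and 3.75 (q = 1.31e-05). None of these held a called peak of the other 4 lists. For LSD1, chr4:46507216-46507757 in an intron of Trim14 had the next highest starved fold after the chromosome 17 peak above, 4.91, with a GR starved fold of 2.99 and a fed H3K9me2 fold of 3.25. In all these examples the fed H3K9me2 peak and the lack of a fed GR or LSD1 peak follow from the rule. The starved GR or LSD1 peak follows from the choice by its fold, so the examples only illustrate.

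Folds over input differ in scale between libraries, so they are given side by side without a comparison. At the overlapped members the median fold of the other list was 2.64 for GR starved, 3.32 for LSD1 starved, 2.36 for H3K9me1 fed, 3.71 for H3K9me1 starved and 2.26 for H3K9me2 starved. Over the whole of each list the medians were 2.7, 3.44, 3.91, 3.97 and 3.75. The H3K9me1 fed and H3K9me2 starved peaks at members were thus low within their own lists.

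The neighbourhood of members was also richer in peaks. Between 5 and 10 kb from the centre, where the rule had no hold, there were 33.6 GR starved peaks per 1000 centres per kb around members and 21.2 around short distal peaks; for LSD1 starved the values were 39.4 and 30, for GR fed 11.1 and 8.07, and for LSD1 fed 14.5 and 9.62. Within 0.5 kb of the centre the GR starved values were 48.3 and 22.5. GR starved peaks were thus denser at member centres than 5 to 10 kb away, whereas around short peaks the values at the centre and at 5 to 10 kb were close. Peaks of the deposited LSD1 starved list rose less at the centre, to 46.4 around members against 31.1 around short peaks. Fed GR and LSD1 dip at the centre because the rule removed them there.

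**Figure D4:**
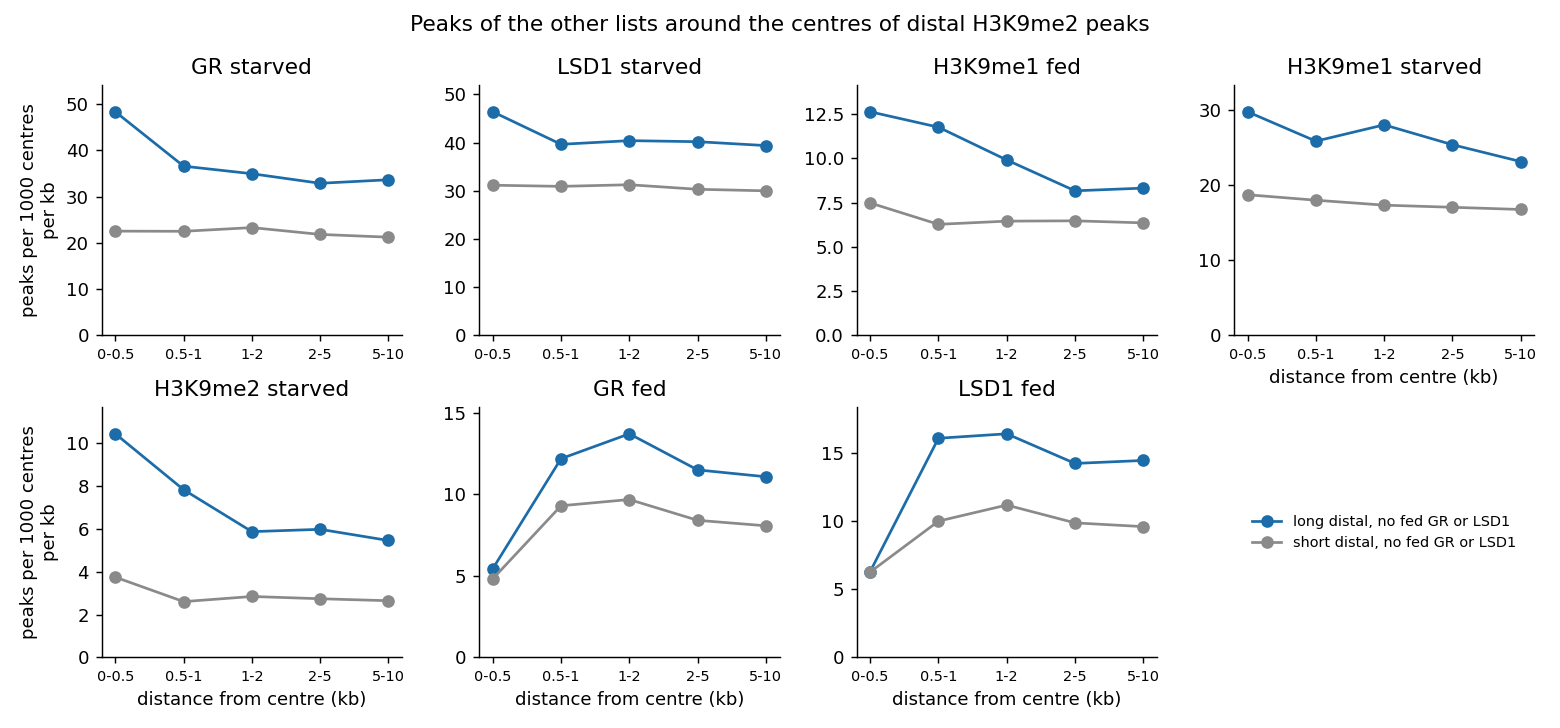
Midpoints of peaks of 7 lists per 1000 centres per kb, by distance from the centre of members (blue) and of short distal peaks (grey); a peak is counted once for each centre within 10 kb. Members lie above short peaks at every distance in the 5 lists the rule did not use, and GR starved falls from 48.3 within 0.5 kb to 33.6 at 5 to 10 kb.

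Members were spread over all autosomes at 1.7 to 2.54 per Mb (highest on chromosome 11), and only 12 lay on X, 0.0734 per Mb against 1.91 per Mb of autosome. The X was poor in the whole fed list, with 7.33 peaks per Mb against 70.8, and members made up 1% of its peaks against 2.7% on autosomes. The mice were male and so carry a single X, and the part of copy number in these values was not tested. By midpoint, 2253 members (49.1%, 47.6 to 50.5) lay in introns, 200 (4.35%) in exons and 2140 (46.6%) between genes, against 45%, 3.45% and 51.6% of short distal peaks. Members were also nearer to genes: the median distance to a TSS was 28.1 kb against 39 kb, 26.6% (25.3 to 27.9) had one within 10 kb against 20.5% (20.3 to 20.7), and 21.6% had none within 100 kb against 28.6%. On average 1.97 other H3K9me2 fed peaks lay within 10 kb of a member, and 1.61 of a short distal peak.

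Most members stood alone. The nearest other member was a median of 133 kb away, 325 (7.08%) had one within 10 kb, and chains of members less than 20 kb apart held at most 3 members except in 5 places. The 2 largest chains were on chromosome 11. At chr11:3170394-3200031, in Sfi1, a centrin-binding protein of the centriole, 13 members in 29.6 kb had a median fold of 1.79, and 12 of them were overlapped by LSD1 starved, 10 by GR starved and 8 by H3K9me1 starved peaks. Neighbouring members could share 1 starved peak: the same GR starved fold of 1.67 with the same q-value recurred at several. The intervals given for shares of members treat such members as independent. At chr11:3122188-3150428, at Pisd-ps1 and the other end of Sfi1, 9 members had a median fold of 2.10, 8 were overlapped by each of GR starved and LSD1 starved, and 7 by H3K9me2 starved peaks. A chain of 5 at chrX:169992522-170022349 by Erdr1, in which all 5 were overlapped by H3K9me1 starved, held 5 of the 12 members on X. The chain of 5 by the major urinary protein gene Mup5 on chromosome 4 had a median fold of 3.37 and that of 4 by Suco on chromosome 1 had 3.74, with 2 and 0 members overlapped by any list. The 3 members that were met by all 5 lists with the highest fold lay in Snhg14, the long imprinted host transcript (chr7:59769774-59770102, fold 2.79), in Sfi1 (chr11:3172791-3173288, fold 2.63) and by Erdr1 (chrX:170001977-170002574, fold 2.40); the first of these had 46 near-identical copies elsewhere.

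Near-identical copies elsewhere (at least 95% identity over at least 90% of the central 300 bp) were found for 179 members (3.9%, 3.36 to 4.5) and for 3.43% (3.34 to 3.52) of short distal peaks. They were more frequent among members that were met by other lists: 16 of the 38 met by 3 or more lists had such a copy, as did 44.4% of the 36 met by H3K9me2 starved and 3.16% of those met by none. Of the 3 members with the highest H3K9me2 starved fold, chr5:14963434-14964099 in Speer8-ps1 (4.69) had 10 copies, whereas chr17:3036022-3036415 (4.17) and the 1154 bp peak on chromosome 4 (3.96) had none. With members that have copies left out, an alternative chosen after seeing the data, H3K9me2 starved met 20 of 4414 (0.453%) against 0.139% of the short distal peaks.

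In base composition the members were like their surroundings. Median GC content of the central 300 bp was 43.3%, as it was in windows 5 kb away, and 42.3% in short distal peaks. The observed over expected ratio of CpG was 0.173 in the centre and 0.169 at 5 kb, and 17.3% of the central bases were repeat-masked against 20%. The 274 long distal peaks with fed GR or LSD1 had 54.7% GC and a CpG ratio of 0.511, so the members lacked the GC-rich composition of those.

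Short patterns were searched in the central 300 bp on both strands without mismatch. They were CAGCTG for the E-box of myogenic factors such as MYOD1, CTA and TAG separated by 4 bases for MEF2, TGANTCA for AP-1, GGAATG for the MCAT element of TEAD factors, TCAGGTT for the MEF3 element of factors such as SIX4, ACANNNTGT for the inner bases of the glucocorticoid response element, TTGGC and GCCAA separated by 5 bases for NFI, GCATGCGC for the core of NRF1, and the CTCF consensus. A match describes letters only. CTCF matches were in 31 member centres (0.675%, 0.459 to 0.957), in 0.239% (0.15 to 0.362) of the windows 5 kb away, in 0.378% (0.348 to 0.409) of short distal centres, in 0.163% (0.149 to 0.177) of the windows 5 kb from those and in 0.413% of all fed H3K9me2 centres. The 274 long distal peaks with fed GR or LSD1 had 1.82% at the centre and 0.182% at 5 kb, so a rise at the centre was not particular to the members. In members with at most 10% repeat-masked bases the share was 1.25% (0.757 to 1.95) against 0.482% (0.433 to 0.535) of such short peaks. That limit was set on the bases of the peak itself. The 300 bp window lies inside a member but reaches past the ends of a short peak, so these shares come from unlike windows. Of the 31, 14 lay between genes, 15 in introns and 2 in exons, 24 were met by no other list and 6 by GR starved, beside 92.4% and 4.51% of all members. The E-box was in 12.7% (11.7 to 13.7) of member centres, 12.3% (11.6 to 13) of the windows 5 kb away and 11.6% (11.4 to 11.7) of short centres. With at most 10% repeat-masked bases in the peak it was in 16.6% (14.8 to 18.6) of members and 13.8% (13.6 to 14.1) of short peaks. Those intervals were apart, but the windows were unlike in the same way. GRE (9.91% against 10.1% at 5 kb), MCAT (14.8% and 15.3%), MEF3 (4.86% and 4.91%), MEF2 (4.66% and 5.4%), AP-1 (9.54% and 8.45%) and NRF1 (0.392% and 0.381%) had overlapping intervals at the centre and 5 kb away, and NFI was found in 1 member. Among the 145 members met by GR starved alone, 22 held the GRE pattern (15.2%, 9.76 to 22.1), against 9.64% (8.77 to 10.6) of members met by no list, so the intervals overlap. The CTCF pattern was in 5 of the 145 (3.45%, 1.13 to 7.86) and in 0.566% (0.363 to 0.84) of members met by no list, with intervals apart. This contrast rests on 5 members and on a pattern singled out after values were seen. The 145 also had a higher median GC content (52.4% against 43%), whose part in it was not tested.

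**Figure D5:**
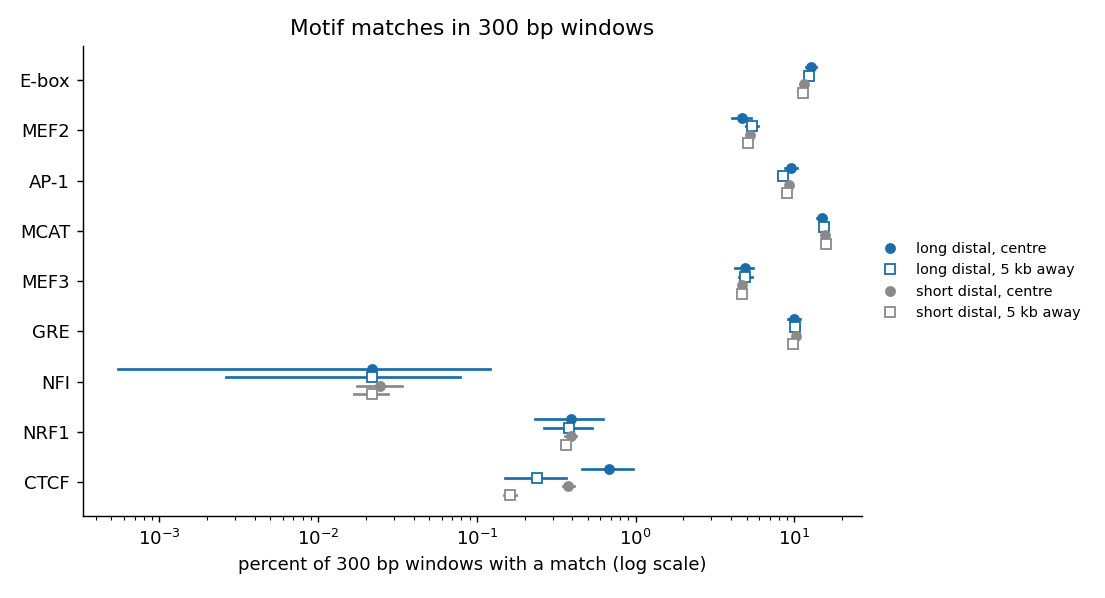
Share of 300 bp windows with a match to each of 9 patterns, on a log scale with 95% exact intervals, at the centres of members (blue circles) and short distal peaks (grey circles) and 5 kb to either side (open squares). CTCF is at 0.675% in member centres and 0.239% at 5 kb, and in short distal peaks at 0.378% and 0.163%; by the ratio of the shares, no other pattern differs as much between centre and 5 kb.

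Genes were joined to members by the gene body and 30 kb upstream. Of 26089 curated RefSeq genes, 3778 (14.5%) had at least 1 member, 3197 of them just 1. The share followed gene length, from 8.49% of genes under 10 kb to 51.7% of genes of 300 kb or more. Members per Mb of window were 2.54 under 10 kb, 2.77 at 10 to 30 kb and 2.75 at 30 to 100 kb. They were lower in longer genes, at 2.33 for 100 to 300 kb and 1.42 for 300 kb or more. The genes with the most members were Sfi1 (20) and its neighbour Eif4enif1 (12), an eIF4E-binding transport protein whose upstream window covers the same Sfi1 chain. The Sfi1 members had low folds, 1.61 to 2.65, against a median of 3.31 over all members. At Eif4enif1 10 of the 12 were met by another list. These counts therefore come largely from the low-fold members set apart above. Long genes followed: Foxp1, a forkhead repressor, and Pard3, a cell polarity scaffold, had 7 each, the receptor phosphatase gene Ptprd and the zinc finger gene Zfp978 6 each, and Atxn1, Fbxl17, the histone acetyltransferase gene Kat6b and the repressor gene Zbtb20 5 each. At Kat6b these made up 17.9% of its 28 fed H3K9me2 peaks, and at Ptprd, which spans 2271 kb, 4.23% of 142. At Sfi1 19 of 20 members were met by another list, at Foxp1 1 of 7 (GR starved, fold 2.56) and at Pard3, Atxn1, Fbxl17, Kat6b and Zbtb20 none. The strongest of the Foxp1 members had a fold of 4.46 and the strongest at Kat6b 4.31.

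Of 32 sarcomere genes, 7 had a member (21.9%, 9.28 to 40). Neb, the thin filament ruler nebulin, had 2 intronic members of folds 3.10 and 2.95. Acta1, skeletal actin, had one of 591 bp with its midpoint in an exon (fold 3.18, q = 0.0503), Flnc, filamin C, one in an exon (fold 2.98) that was met by an LSD1 starved peak of fold 4.17, and Ldb3, a Z-disc protein, one in an exon (fold 3.66). Excitation-contraction coupling genes had 2 of 19, in introns of the calcium channel subunit gene Cacna2d1 (3.25) and of Trdn, triadin (3.09). Both shares have intervals that hold the 14.5% of all genes.

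Among 28 genes of atrophy and the glucocorticoid response, 4 had a member (14.3%, 4.03 to 32.7), which is the share of all genes. Fkbp5, a GR-induced co-chaperone that feeds back on the receptor, had 3 in introns, at 66.6, 42.1 and 0.379 kb from its start and with folds of 3.03, 3.68 and 3.08. Pik3r1, the regulatory subunit of phosphoinositide 3-kinase, had 2 in introns (2.86 and 3.54) and 1 upstream (3.22). Cdkn1a, the cell cycle inhibitor p21, and Gabarapl1, an autophagy gene, had 1 each upstream (3.08 and 2.97). None of these 8 members was met by any of the 5 other lists, as was the case for 92.4% of all members.

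Myogenic and developmental factors had 5 of 20 genes with a member (25%, 8.66 to 49.1), an interval that holds the 14.5% of all genes. The TEAD factor gene Tead1 had 3, of folds 3.45, 3.29 and 3.06, the last met by an H3K9me1 fed peak of 3.96. At Nfix, which drives the switch to fetal myogenesis, the member (3.13) was met by GR starved (2.63) and LSD1 starved (3.28). Six4 (3.15) and Sox6 (3.14), a repressor of slow fibre genes, had 1 each. Of 24 genes of H3K9 methylation enzymes and readers, 6 had 1 each (25%, 9.77 to 46.7), among them Cbx5 (HP1 alpha, 3.25) and the demethylase genes Kdm1b (3.69), Kdm3a (3.63) and Kdm4c (3.21). Of 26 marker genes of other cell types 4 had one (15.4%, 4.36 to 34.9): Dcn of fibroblasts (3.25), Mbp of Schwann cells (3.63), Snap25 of nerve terminals (3.62) and Tek of endothelium (3.41). These 2 intervals hold the 14.5% as well.

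Among large gene families, the receptor genes of smell had few members. Only 26 of 1125 olfactory receptor genes (2.31%, 1.52 to 3.37) and 12 of 357 vomeronasal receptor genes (3.36%, 1.75 to 5.8) had a member, and their windows held 0.775 and 0.707 members per Mb against 2.27 for all genes. Neighbouring genes shared members, so 18 and 9 members stood behind these counts. The intervals treat the genes as independent. These are short genes in gene family clusters, and genes under 10 kb as a whole reached 8.49% and 2.54 per Mb. Among the receptor genes named by the rule were Olfr1130, Olfr1135, Olfr1204 and Olfr1206, the last pair through the same member, and Vmn1r100, Vmn1r14, Vmn1r152 and Vmn1r232, with folds of 3.16 to 3.65. Genes named Zfp had a member in 69 of 406 (17%, 13.5 to 21), an interval that holds the share of all genes, with Zfp978 (6), Zfp623 (3), Zfp395 (2) and Zfp534 (2) first. Hox genes, including their antisense transcripts, reached 12 of 45, but only 4 members stood behind them. Clustered protocadherins had 2 of 58, Pcdhb1 and Pcdhb2, through 1 member (3.33).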

How the data were processed

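The files are MACS2 broad peak lists, 1 per ChIP library. Per the study's methods, the authors mapped single-end reads to mm10 with Bowtie, kept unique reads, removed reads in the human ENCODE blacklist and called peaks against input. From these lists the deposited fold over input (a ratio) and −log10 q-value of each peak entered the values given here. The score column was not used, and no p-value of a peak is reported. The methods exclude peaks above an FDR of 0.01, but the deposited q-value reached 0.0998 in the fed H3K9me2 list used here, so an alternative kept q-values of 0.01 or less. Read depth is unknown, and inputs entered only through peak calling.

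Members were found with the stated rule, using 45756 curated RefSeq transcripts (GRCm38). Lists were compared by overlap of at least 1 bp. Repeat-masked bases are the lower-case bases of the assembly. Copies were searched with minimap2 2.31-r1302; shares and intervals came from SciPy 1.17.1, and figures from matplotlib 3.10.9. Overlap and motif code was tested on simulated data. Named members were the 5 of highest fold, the 5 longest, the 3 of highest H3K9me2 starved fold and the 3 met by most lists, outside chromosome 18. Named genes were the 10 with the most members and up to 4 per list; for the Hox list these are not reported here. The members and gene lists were chosen with earlier results of these data known. Alternatives changed the shortest length, promoter, overlap, q-value, fold (also with the central 100 bp), copies, repeats and annotation.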

Additional observations from a re-analysis of the deposited data

How the results depend on the processing

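In 11 alternatives that change 1 choice each, members were met more often than short distal peaks by each of the 5 other lists. With 2 choices together, the central 100 bp and a fold of 2.5 or more (chosen after seeing the data), the shares were 2.64%, 1.27%, 0.132%, 0.549% and 0.22% in the order of lists below, and for H3K9me1 fed the difference between members and short peaks turned to -0.0383 percentage points. The number of members was 29196 with a shortest length of 200 bp, 296 with 500 bp and 489 with a q-value of 0.01 or less, and stayed within 1.5 times under the other promoter, annotation and distance rules. In the order GR starved, LSD1 starved, H3K9me1 fed, H3K9me1 starved and H3K9me2 starved, the share of members met was 2.36%, 1.61%, 0.462%, 0.997% and 0.322% with 200 bp, 11.1%, 8.45%, 3.04%, 6.76% and 2.7% with 500 bp, 9.0%, 7.57%, 4.7%, 5.32% and 5.11% with a fed H3K9me2 q-value of 0.01 or less, and 1.72%, 0.98%, 0.435%, 1.11% and 0.348% with that limit in the other list. Over the central 100 bp the first 4 were 3.22%, 1.87%, 0.37% and 1.0%. With 50% of the shorter peak required, GR starved stood at 3.29% and LSD1 starved at 2.39%. With no fed GR or LSD1 peak within 1 kb, GR starved stood at 3.73%. With at most 10% of bases repeat-masked, GR starved stood at 6.14%, H3K9me1 starved at 1.45% and H3K9me2 starved at 0.528%. Also chosen after seeing the data were a limit on fold and the removal of copies. At a fold of 2.5 or more, LSD1 starved stood at 2.18%, H3K9me1 fed at 0.374%, H3K9me1 starved at 1.3% and H3K9me2 starved at 0.308%, and without copies elsewhere LSD1 starved stood at 2.38%, H3K9me1 starved at 1.47% and H3K9me2 starved at 0.453%. Location shifted as well. By any base of the peak, 8.93% of members lay in exons, 44.6% in introns and 46.4% between genes. With all RefSeq transcripts these shares were 7.45%, 52.7% and 39.9%, beside 4.35%, 49.1% and 46.6% as reported. The cause of these shifts was not tested. No paired analysis was possible because each group has 1 library. The unknown read depth limits every share: a missing peak cannot be told from one below the calling limit.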
